A study of Rattus norvegicus with 12 samples.

Results

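The interaction of stretch and Wnt5a siRNA in cultured rat cardiomyocytes is described here, that is, how far the change of each transcript with stretch differed between cells with a Wnt5a siRNA and cells with a control siRNA. All 12 of the 12 RNA sequencing libraries entered it, in 4 groups of 3. The groups were cells given a Wnt5a siRNA and stretched, cells given a Wnt5a siRNA and left unstretched, cells given a control siRNA and stretched, and cells given a control siRNA and left unstretched. They are called here stretched and unstretched Wnt5a siRNA and stretched and unstretched control siRNA. The cells were labelled as cardiomyocytes of the Wistar strain, and the series describes them as coming from the ventricles of newborn rats. Every group therefore carried an siRNA, and no group of untransfected cells was analysed here. The labels give neither the form nor the length of the stretch, nor the sequence of the siRNA.

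Wnt5a is a secreted ligand that acts mostly through Frizzled and Ror receptors without beta-catenin, on small GTPases, the actin cytoskeleton and, in several cell types, the transcriptional coactivators YAP and TAZ. Heart muscle cells under mechanical load turn on immediate early genes, natriuretic peptides, fetal isoforms of contractile proteins and growth factors, and turn down genes of fatty acid oxidation and of the mature electrical apparatus. An interaction asks which of these responses are of another size when Wnt5a is knocked down.

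For each gene the change with stretch on log2(FPKM + 1) was taken with Wnt5a siRNA and with control siRNA, and the interaction is the first minus the second. FPKM are fragments counted per length of transcript and scaled for the size of the library. The median ratio of a library to the geometric mean of all libraries, over genes above 0 throughout, ran from 1.0001 to 1.0061. By that measure the values were already level between libraries. All log2 changes below are on this scale, which understates the changes of low genes, and are given ± SE, with 95% intervals and with p-values from limma adjusted over the 10518 genes tested by the method of Benjamini and Hochberg. An adjusted p under 0.05 is called a pass. Whether the replicates of a group were independent cultures is not stated; the p-values reflect only how these libraries vary, and part of that variation may be technical.

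Summed FPKM ran from 619742 to 659933 in stretched Wnt5a siRNA, 575161 to 607276 in unstretched Wnt5a siRNA, 676014 to 709021 in stretched control siRNA and 588509 to 598628 in unstretched control siRNA libraries; the read depth is unknown. The 9 cardiomyocyte markers used were high in every library, from 71.2 FPKM at the lowest for the calcium release channel Ryr2 to 18630 FPKM at the highest for cardiac actin Actc1. Replicate 3 of stretched control siRNA scored −3.99 on the second principal component (22.9% of the variance), against 25.1 and 24.8 for the other replicates of its group. Its log2 differences from them had an SD of 0.393 and 0.426, against 0.205 to 0.288 in every other pair of replicates. Since that library enters the stretch change with control siRNA, results are also given without it.

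Wnt5a transcript itself was at 6.22, 5.88 and 5.56 FPKM in stretched and at 6.15, 4.60 and 6.81 FPKM in unstretched Wnt5a siRNA libraries. It was at 6.52, 5.66 and 8.22 FPKM in stretched and at 12.3, 10.4 and 11.6 FPKM in unstretched control siRNA libraries. The unstretched control siRNA group lay above the other groups without overlap, and the other 3 groups overlapped each other. The stretch change of Wnt5a was 0.02 with Wnt5a siRNA (interval −0.28 to 0.32) and −0.68 with control siRNA (−0.99 to −0.38), an interaction of 0.70 ± 0.20 (adjusted p = 0.0244, from 0.0023 to 0.056 over the alternatives). The interaction did not pass when any of 5 single libraries was left out: unstretched control siRNA 1 or 3, unstretched Wnt5a siRNA 2, stretched control siRNA 1 or stretched Wnt5a siRNA 1. Exact 2-sided permutation tests of stretch gave p = 0.9 with Wnt5a siRNA and p = 0.1 with control siRNA, which is the smallest p that 3 against 3 libraries allow. A lower Wnt5a level with Wnt5a siRNA was thus seen without overlap in the unstretched libraries and not in the stretched ones.

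Fewer genes responded to stretch with Wnt5a siRNA than with control siRNA at the same threshold. The change with stretch passed for 1686 of 10518 genes with Wnt5a siRNA (16.0%; 888 rose, 8.44%, and 798 fell, 7.59%), against 5711 with control siRNA (54.3%; 2889 rose, 27.5%, and 2822 fell, 26.8%). The median size of the log2 change over all genes was 0.152 with Wnt5a siRNA and 0.305 with control siRNA, and 133 genes against 732 changed at least 2-fold. The genes that rose with control siRNA had a median change of 0.13 with Wnt5a siRNA against 0.48 with control siRNA, and the genes that fell had −0.18 against −0.57. These medians are of genes chosen on the control siRNA libraries, so the control siRNA value of each pair is raised by the choice. The interaction passed in the direction of a smaller or opposite response for 1189 of the 2889 rises and 1089 of the 2822 falls, and for the others no difference in this direction passed.

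The interaction itself passed for 2503 of 10518 genes (23.8%), with 1226 (11.7%) higher and 1277 (12.1%) lower, and its median over all genes was 0.0016. At least 2-fold interactions that passed numbered 270 higher and 166 lower. Without stretched control siRNA 3 the interaction passed for 3634 genes (34.6%), 1732 higher (16.5%) and 1902 lower (18.1%); 2426 genes passed in both analyses in the same direction, 96.9% of those with all libraries and 66.8% of those without that library. When FPKM were rescaled to TPM, which sets each library to the same sum, 1608 genes were higher (14.7%) and 800 lower (7.32%), 22.0% in all. After it the libraries are no longer level by the median ratio. The rescaling moved the median over all genes by about 0.10 for the interaction, to 0.102. It moved the median stretch change to −0.122 with Wnt5a siRNA and to −0.204 with control siRNA, with 504 rises (4.61%) and 1758 falls (16.1%) with Wnt5a siRNA and 1466 rises (13.4%) and 4597 falls (42.1%) with control siRNA. Statements on higher and lower below are relative to the FPKM scale unless a TPM value is given.

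**Figure D1:**
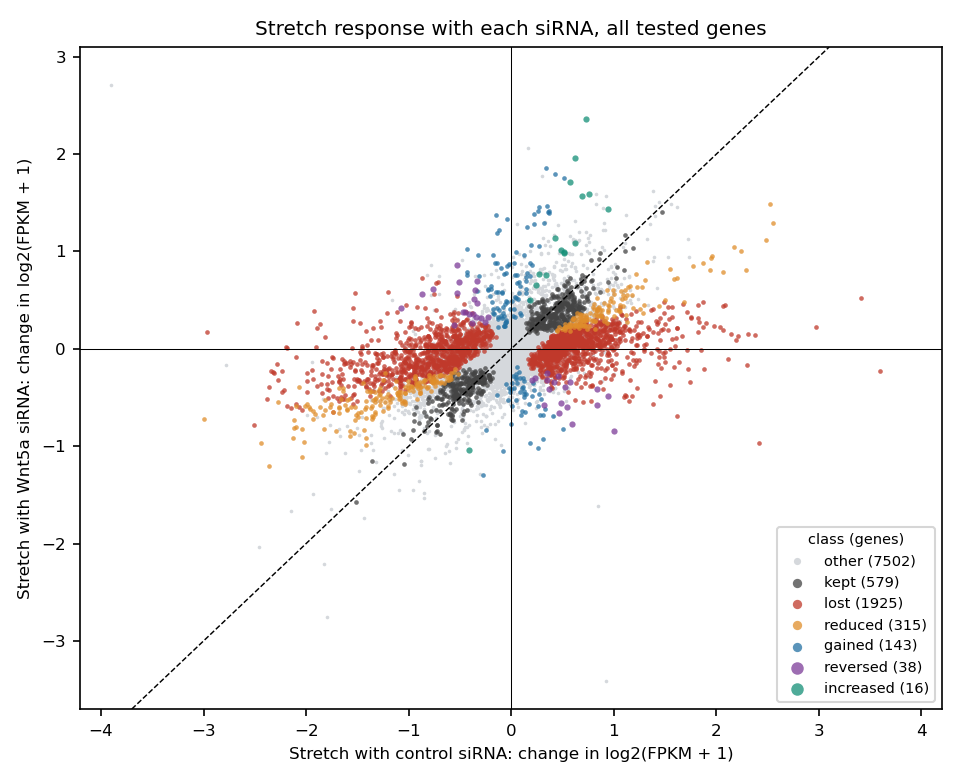
Change with stretch of every tested gene with Wnt5a siRNA (vertical axis) against control siRNA (horizontal axis), both in log2(FPKM + 1), coloured by response class; the dashed line marks equal changes and 1 gene, Mir6326, lies outside the axes. The class rules place the 1925 genes with a lost response along the horizontal axis and the 579 with a kept response along the dashed line. Over all tested genes the vertical spread is smaller than the horizontal spread. The axes share no library.

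The 3 tests placed each gene in a response class. A response was called lost when it passed with control siRNA, did not pass with Wnt5a siRNA and the interaction passed in the opposite direction, which leaves a smaller change with Wnt5a siRNA possible. It was reduced when it passed with both siRNAs in the same direction and the interaction opposed it, and reversed when it passed in opposite directions. It was gained when it passed with Wnt5a siRNA only and the interaction passed, and increased when the interaction passed in the direction of a response already present. It was kept when it passed with both siRNAs in the same direction and the whole 95% interval of the interaction lay within 1.5-fold. The interaction and the stretch change with control siRNA share the control siRNA libraries, so a library of that group enters both. The stretch change with Wnt5a siRNA uses no control siRNA library, but its p-value rests on a spread pooled over all 4 groups. Leaving out stretched control siRNA 3 can thus move that p-value past the threshold while the size of the change stays the same.

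Lost responses numbered 1925 genes (1029 rises and 896 falls with control siRNA), reduced responses 315 (142 and 173), reversed responses 38 (18 and 20), gained responses 143 (94 rises and 49 falls with Wnt5a siRNA), increased responses 16 (15 and 1) and kept responses 579 (328 and 251). Of the other genes with a passing interaction, 66 had no passing response with either siRNA. A response with control siRNA only, without a passing interaction, was found for 2524 genes, which cannot be put on either side. No response and no interaction were seen for 4317 genes. Without stretched control siRNA 3, the counts were 2510 lost, 527 reduced, 143 reversed, 305 gained, 39 increased and 847 kept, and 1688, 304, 34, 117, 12 and 515 of the genes in these classes were in the same class in both analyses. With TPM the balance of rises and falls turned over in several classes, with 618 rises and 1122 falls lost, 30 and 21 reversed, 82 and 85 gained, and 122 and 638 kept. Reduced responses, with more falls than rises on either scale, then numbered 37 rises and 362 falls.

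The lost rises were led by Nppa, the gene of atrial natriuretic peptide, which stressed ventricular muscle secretes. Nppa was at 2921, 4141 and 1976 FPKM in stretched and at 5693, 9162 and 3415 FPKM in unstretched Wnt5a siRNA libraries, against 7829, 5749 and 10950 FPKM in stretched and 1817, 1252 and 1415 FPKM in unstretched control siRNA libraries. Stretch raised every control siRNA library above every unstretched control, whereas with Wnt5a siRNA the unstretched libraries were already high and overlapped the stretched ones. The stretch change was −0.97 with Wnt5a siRNA and 2.42 with control siRNA, an interaction of −3.38 ± 0.49 (interval −4.45 to −2.32, adjusted p = 0.00173). Without stretched control siRNA 3 the fall with Wnt5a siRNA also passed, at the same size of −0.97 (SE 0.33 instead of 0.35). That put Nppa among the reversed genes, with an interaction of −3.15. Nppb, the gene of brain natriuretic peptide, was at 1163, 1694 and 642 FPKM in stretched and at 1074, 1519 and 560.3 FPKM in unstretched Wnt5a siRNA libraries, against 3990, 3603 and 2564 FPKM in stretched and 944, 664 and 487 FPKM in unstretched control siRNA libraries. Only the stretched control siRNA libraries stood clear of the rest. Its interaction was −2.15 ± 0.55 (adjusted p = 0.016).

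Xirp2, an actin-binding protein of the intercalated disc, was at 121, 210.5 and 86.5 FPKM in stretched and at 127, 121 and 90.5 FPKM in unstretched Wnt5a siRNA libraries, against 234, 217 and 287 FPKM in stretched and 36.7, 27.8 and 27.5 FPKM in unstretched control siRNA libraries. With Wnt5a siRNA the level lay between the control siRNA groups whether or not the cells were stretched. The interaction was −2.75 ± 0.36 (adjusted p = 0.00136). Bdkrb2, the bradykinin B2 receptor, was at 5.88, 9.48 and 3.08 FPKM in stretched and at 4.26, 4.69 and 2.34 FPKM in unstretched Wnt5a siRNA libraries, against 31.4, 17.6 and 21.7 FPKM in stretched and 1.46, 1.45 and 0.885 FPKM in unstretched control siRNA libraries. The stretched control siRNA libraries were the highest and the unstretched control siRNA libraries the lowest, with no overlap with any other group. The interaction was −2.89 ± 0.44 (adjusted p = 0.00198).

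Hbegf, a membrane-bound ligand of the EGF receptor, was at 30.7, 46.7 and 21.7 FPKM in stretched and at 39.4, 44.5 and 25.6 FPKM in unstretched Wnt5a siRNA libraries, against 117, 119.5 and 58.4 FPKM in stretched and 22.9, 17.3 and 15.3 FPKM in unstretched control siRNA libraries. Replicate 3 of stretched control siRNA was the lowest of its group and still above every other library. The interaction was −2.46 ± 0.44 with all libraries (adjusted p = 0.00342) and −2.80 without that replicate. Cnn1, calponin, an actin-binding protein of smooth and immature cardiac muscle, had an interaction of −2.31 ± 0.33 (adjusted p = 0.00163). Its stretch change was −0.69 with Wnt5a siRNA and 1.62 with control siRNA. Without stretched control siRNA 3 the same change of −0.69 passed (adjusted p = 0.0493, against 0.0629 with all libraries), which made it a reversed response. The 1029 lost rises had a median stretch change of 0.0366 with Wnt5a siRNA and 0.597 with control siRNA. In the same genes the Wnt5a siRNA minus control siRNA difference had a median of −0.303 with stretch and 0.269 without it. The class rule requires that the change with Wnt5a siRNA did not pass and that the siRNA difference is lower with stretch than without it. The order within each pair of medians is therefore set by the rule.

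The lost falls included Hadh, a dehydrogenase of mitochondrial fatty acid oxidation. Hadh was at 21.1, 23.4 and 28.4 FPKM in stretched and at 25.7, 24.4 and 36.7 FPKM in unstretched Wnt5a siRNA libraries, against 7.95, 11.1 and 14.2 FPKM in stretched and 50.5, 59.8 and 67.4 FPKM in unstretched control siRNA libraries. The Wnt5a siRNA libraries, stretched or not, lay between the control siRNA groups without touching either. The interaction was 2.11 ± 0.28 (adjusted p = 0.00136). G0s2, an inhibitor of the triglyceride lipase that feeds fatty acids to the mitochondria, was at 139.5, 127 and 144 FPKM in stretched and at 121, 106 and 127 FPKM in unstretched Wnt5a siRNA libraries, against 27.2, 38.8 and 48.5 FPKM in stretched and 111, 154 and 164 FPKM in unstretched control siRNA libraries. The stretched control siRNA libraries lay below all others, and the unstretched control siRNA libraries overlapped both Wnt5a siRNA groups. The interaction was 2.11 ± 0.25 (adjusted p = 0.000992).

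Lrrc39, a myosin-binding protein of the M-band, was at 9.17, 9.02 and 10.3 FPKM in stretched and at 9.85, 6.42 and 13.0 FPKM in unstretched Wnt5a siRNA libraries, against 3.89, 3.79 and 5.74 FPKM in stretched and 20.0, 22.7 and 28.9 FPKM in unstretched control siRNA libraries. It followed the order of Hadh, with both Wnt5a siRNA groups in between. The interaction was 2.2 ± 0.29 (adjusted p = 0.00136). Fn3k, a kinase that removes sugar from glycated proteins, had an interaction of 2.12 ± 0.23 (adjusted p = 0.000569) and Nr0b2, an orphan nuclear receptor also known as SHP, 2.35 ± 0.45 (adjusted p = 0.00463). Over the 896 lost falls the median stretch change was −0.0632 with Wnt5a siRNA and −0.738 with control siRNA, and the Wnt5a siRNA minus control siRNA difference had a median of 0.322 with stretch and −0.389 without it. The class rule sets the order within these pairs too, here with the siRNA difference higher with stretch. The genes named in each class were taken in the order of their interaction, so their sizes are the upper end of the class.

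**Figure D2:**
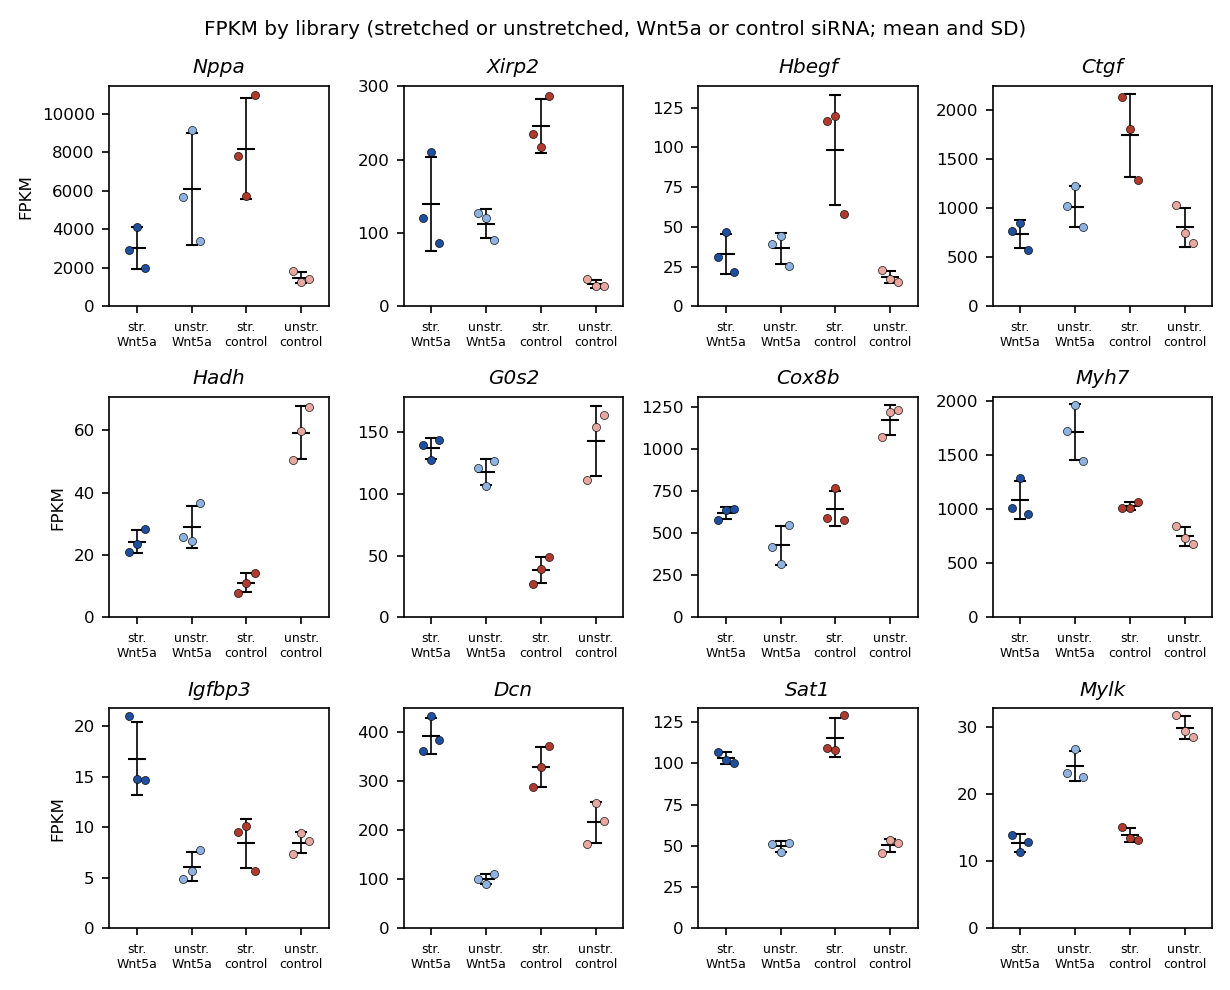
FPKM of 12 genes in each library (points) with the mean and SD of each group (n = 3), groups from left to right: stretched Wnt5a siRNA, unstretched Wnt5a siRNA, stretched control siRNA and unstretched control siRNA, with every axis starting at 0. Nppa, Xirp2, Hbegf and Ctgf are highest in stretched control siRNA, Hadh and G0s2 lowest there, Igfbp3 and Dcn highest in stretched Wnt5a siRNA, and Sat1 and Mylk differ with stretch alike for both siRNAs.

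Reduced responses still passed with Wnt5a siRNA. Among the rises, Ptgis, the prostacyclin synthase, was at 122, 145 and 107 FPKM in stretched and at 68.3, 84.0 and 59.5 FPKM in unstretched Wnt5a siRNA libraries, against 235, 199 and 164 FPKM in stretched and 45.4, 40.4 and 33.7 FPKM in unstretched control siRNA libraries. All 4 groups were separate. Its rise was 0.81 with Wnt5a siRNA (adjusted p = 0.00544) and 2.29 with control siRNA (adjusted p = 1.49e-06), an interaction of −1.47 ± 0.23. Il1rl1, the receptor of interleukin 33 whose soluble form is a serum marker of cardiac strain, rose by 1.12 with Wnt5a siRNA and 2.49 with control siRNA. Ramp3, a subunit of adrenomedullin receptors, rose by 1.29 and 2.55 in the same order, and its interaction of −1.26 (adjusted p = 0.0193) did not pass without stretched Wnt5a siRNA 3 (adjusted p = 0.0538). Id1 and Id4, inhibitors of basic helix-loop-helix transcription factors and targets of BMP signals, rose by 1.01 and 0.78 with Wnt5a siRNA and by 2.24 and 2.07 with control siRNA.

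Among the reduced falls, Pfkm, the muscle phosphofructokinase, was at 55.6, 54.5 and 70.9 FPKM in stretched and at 87.3, 77.1 and 110.5 FPKM in unstretched Wnt5a siRNA libraries, against 26.8, 40.0 and 33.6 FPKM in stretched and 128, 149 and 161 FPKM in unstretched control siRNA libraries. The 4 groups did not overlap, and the gap between stretched and unstretched libraries was wider with control siRNA. The interaction was 1.51 ± 0.23 (adjusted p = 0.0019). Mmp15, a membrane-bound matrix protease, had an interaction of 1.73 ± 0.19 (adjusted p = 0.000569), the tetraspanin Tspan18 1.68, the muscle protein Txlnb 1.43 and Smim5, a small membrane protein, 2.27.

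Reversed responses passed in opposite directions. Myh7, the slow beta myosin heavy chain of the fetal program, was at 1009, 1292 and 958 FPKM in stretched and at 1729, 1966 and 1446 FPKM in unstretched Wnt5a siRNA libraries, against 1008, 1014 and 1072 FPKM in stretched and 846, 732 and 676 FPKM in unstretched control siRNA libraries. The stretched groups overlapped and the unstretched groups lay apart on either side of them. Stretch lowered Myh7 by 0.66 on the log2 scale with Wnt5a siRNA (adjusted p = 0.00575) and raised it by 0.46 with control siRNA (adjusted p = 0.0101), an interaction of −1.12 ± 0.19 (adjusted p = 0.00257). Kcnk2, the mechanically gated potassium channel TREK-1, was at 6.68, 5.04 and 5.57 FPKM in stretched and at 8.39, 9.46 and 7.43 FPKM in unstretched Wnt5a siRNA libraries, against 11.2, 10.8 and 12.8 FPKM in stretched and 6.73, 6.06 and 4.10 FPKM in unstretched control siRNA libraries. Stretch separated the libraries with each siRNA, in opposite directions. Its fall with Wnt5a siRNA passed narrowly (adjusted p = 0.0486), and its interaction was −1.43 ± 0.21 (adjusted p = 0.00194).

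Hr, the corepressor hairless, had an interaction of −1.41, the proteoglycan NG2 (Cspg4) −1.36, the microtubule-associated protein Map1a −1.25 and the intermediate filament protein synemin (Synm) −1.14, each lower under stretch with Wnt5a siRNA and higher with control siRNA. In the other direction, Cox8b, the muscle form of a cytochrome oxidase subunit, was at 579, 637 and 643 FPKM in stretched and at 419, 318 and 546 FPKM in unstretched Wnt5a siRNA libraries, against 593, 768 and 579.5 FPKM in stretched and 1072, 1219 and 1231 FPKM in unstretched control siRNA libraries. The unstretched control siRNA libraries were far above the rest, the unstretched Wnt5a siRNA libraries were the lowest, and the stretched groups overlapped. The interaction was 1.43 ± 0.23 (adjusted p = 0.00235). Selenoprotein P (Sepp1), a plasma selenium carrier, had an interaction of 1.20, the membrane proteins Smim8 and Tmem176a 1.5 and 1.39, and Cpxm1, a secreted carboxypeptidase-like protein, 1.04. When stretched control siRNA 3 was left out, the fall of Tmem176a and Cpxm1 with control siRNA did not pass, and both counted as gained.

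Gained rises passed with Wnt5a siRNA and did not pass with control siRNA. Igfbp3, a carrier of insulin-like growth factors, was at 21.0, 14.8 and 14.6 FPKM in stretched and at 4.89, 5.66 and 7.70 FPKM in unstretched Wnt5a siRNA libraries, against 9.50, 10.1 and 5.66 FPKM in stretched and 7.37, 9.41 and 8.67 FPKM in unstretched control siRNA libraries. The stretched Wnt5a siRNA libraries were above all others, and the control siRNA groups overlapped. The interaction was 1.37 ± 0.29 (adjusted p = 0.00707). Cd93, a lectin of endothelial and myeloid cells, had an interaction of 1.29, Capn6, a calpain without protease activity, 1.32, the tetraspanin-like Tm4sf19 1.36, and Fxyd2, a regulatory subunit of the sodium pump, 1.15. The interaction of Fxyd2 (adjusted p = 0.0227) did not pass without unstretched control siRNA 2, unstretched Wnt5a siRNA 2 or stretched Wnt5a siRNA 3. Without stretched control siRNA 3 the rise of Tm4sf19 with control siRNA passed as well, which made it an increased response.

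Gained falls included Mustn1, a small nuclear protein of muscle and skeleton. Mustn1 was at 4.25, 5.37 and 3.88 FPKM in stretched and at 9.40, 14.4 and 7.43 FPKM in unstretched Wnt5a siRNA libraries, against 17.7, 10.2 and 10.6 FPKM in stretched and 12.1, 9.56 and 9.37 FPKM in unstretched control siRNA libraries. Only the stretched Wnt5a siRNA libraries stood apart, below the rest. The interaction was −1.27 ± 0.32 (adjusted p = 0.015). The retinoic acid-degrading enzyme Cyp26b1 had an interaction of −1.33 and the proteoglycan aggrecan (Acan) −1.23. The interaction of Acan (adjusted p = 0.0329) did not pass without a filter on low values or when any of 8 single libraries was left out, with adjusted p of up to 0.0839.

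Increased responses were few, and 4 of the 16 were fibroblast markers. Dcn, decorin, a small proteoglycan that binds collagen, was at 362, 432 and 384 FPKM in stretched and at 99.7, 89.9 and 111 FPKM in unstretched Wnt5a siRNA libraries, against 289, 329 and 371 FPKM in stretched and 173, 256 and 219.7 FPKM in unstretched control siRNA libraries. The stretched groups overlapped, and the unstretched Wnt5a siRNA libraries were the lowest. The rise was 1.96 with Wnt5a siRNA and 0.62 with control siRNA, an interaction of 1.34 ± 0.19 (adjusted p = 0.0017). Fbln1, fibulin 1, had an interaction of 1.63 (adjusted p = 0.00694) and Igf1, insulin-like growth factor 1, 1.14 (adjusted p = 0.0133); without stretched control siRNA 3 the rise of Igf1 with control siRNA did not pass (adjusted p = 0.0939), which made it a gained response. Lumican (Lum, 0.89, adjusted p = 0.0364) and the imprinted long noncoding RNA H19 (0.83, adjusted p = 0.0428) did not pass under 9 and 12 of the alternatives, with adjusted p of up to 0.0903 and 0.104. The single increased fall was Tpm2, beta-tropomyosin, at −0.62 (adjusted p = 0.021), which fell short with quantile normalization (adjusted p = 0.106) and when any of 3 single libraries was left out.

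Fibroblast markers moved with these genes, and 3 of them (Dcn, Lum and Fbln1) are on the list of fibroblast markers. The 18 fibroblast markers summed to 13820 to 14580 FPKM in stretched and 9452 to 10030 FPKM in unstretched Wnt5a siRNA libraries, against 8957, 8550 and 13970 FPKM in stretched and 5945 to 6400 FPKM in unstretched control siRNA libraries; Col1a2 was listed at 0 throughout. Replicate 3 of stretched control siRNA was in the range of the stretched Wnt5a siRNA libraries. Of 17 fibroblast markers tested, 4 had a higher interaction, all of them increased, and 1 a lower interaction, with a median of −0.00936 that was 0.0961 with TPM; without stretched control siRNA 3, 7 were higher and 1 lower, with a median of 0.28. In bulk libraries more cells of a type and more of its RNA per cell cannot be told apart. The part of fibroblast RNA in the increased responses was not tested.

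Kept responses passed in the same direction with both siRNAs and had an interaction within narrow limits. Sat1, the enzyme that starts polyamine breakdown, was at 107, 102 and 100.2 FPKM in stretched and at 51.2, 46.0 and 51.8 FPKM in unstretched Wnt5a siRNA libraries, against 109, 108 and 129 FPKM in stretched and 45.6, 53.3 and 51.7 FPKM in unstretched control siRNA libraries. Stretched and unstretched libraries were separate with each siRNA; the unstretched groups overlapped, and the stretched control siRNA libraries lay just above the stretched Wnt5a siRNA libraries. The rise was 1.04 with Wnt5a siRNA and 1.19 with control siRNA, and the interval of the interaction ran from −0.40 to 0.11. Slco4a1, an organic anion transporter, rose by 1.40 and 1.47, Gfpt2, an enzyme at the start of the hexosamine pathway, by 1.17 and 1.11, and the monocyte chemokine Ccl2 by 1.0 and 1.11, with Wnt5a siRNA first. Among the kept falls, Mylk, the myosin light chain kinase of smooth muscle, was at 13.9, 11.4 and 12.9 FPKM in stretched and at 23.3, 26.8 and 22.6 FPKM in unstretched Wnt5a siRNA libraries, against 15.1, 13.5 and 13.2 FPKM in stretched and 31.9, 29.5 and 28.5 FPKM in unstretched control siRNA libraries. The stretched groups overlapped and lay below the unstretched ones. Its interaction had an interval of −0.11 to 0.46. Fxyd7, another regulator of the sodium pump, fell by 1.58 and 1.52 and Mrvi1, a substrate of cGMP-dependent kinase at the calcium store, by 1.16 and 1.36. Trpc6, a cation channel linked to stretch and to receptor signals, fell by 1.18 with Wnt5a siRNA and 1.04 with control siRNA; without stretched control siRNA 3 its interval was too wide to call it kept.

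The readouts of YAP gave a mixed picture. Yap1 transcript had no passing response with either siRNA, with an interaction of 0.02 (interval −0.18 to 0.23, adjusted p = 0.881). Ctgf, connective tissue growth factor, a direct target of YAP and TEAD factors, was at 773, 851 and 575 FPKM in stretched and at 1023, 1224 and 806 FPKM in unstretched Wnt5a siRNA libraries, against 2133, 1807 and 1293 FPKM in stretched and 1031, 746 and 647 FPKM in unstretched control siRNA libraries. The stretched control siRNA libraries lay above all others, and its rise was lost, with an interaction of −1.58 ± 0.31 (adjusted p = 0.00541). Cyr61, a related matricellular target, was at 138, 131 and 95.8 FPKM in stretched and at 194, 234 and 162 FPKM in unstretched Wnt5a siRNA libraries, against 278, 231 and 185 FPKM in stretched and 203, 163 and 155 FPKM in unstretched control siRNA libraries. Stretch lowered every Wnt5a siRNA library below every unstretched one, while the control siRNA groups overlapped, and the interaction was −1.09 ± 0.25 (adjusted p = 0.0104). Without stretched control siRNA 3 its rise with control siRNA passed, which made it a reversed response. Ankrd1, a titin-associated stress protein, had a stretch change of 0.13 with Wnt5a siRNA and 0.68 with control siRNA, and its interaction did not pass (−0.56, interval −1.24 to 0.12, adjusted p = 0.212). It was −0.76 (adjusted p = 0.0554) without stretched control siRNA 3, and the adjusted p ran from 0.0175 to 0.432 over the alternatives. The interaction of skeletal actin Acta1 was −0.69 with an interval of −2.35 to 0.98 (adjusted p = 0.543), and it was −1.51 (adjusted p = 0.0178) without stretched control siRNA 3, in which Acta1 was at 238 FPKM against 1387 and 1235 FPKM in the other replicates. Of 17 YAP and TAZ targets tested, 2 had a higher interaction (F3 and Igfbp3) and 5 a lower one (Ctgf, Cyr61, Tgfb2, Gadd45a and Myof), with a median of −0.326. Without stretched control siRNA 3, 2 of these targets were higher and 8 lower, with a median of −0.41. Of 16 Hippo pathway components 1 was higher and 0 lower, while 2 were higher and 3 lower without stretched control siRNA 3. Among all genes 11.7% were higher and 12.1% lower (23.8%), and 16.5% and 18.1% (34.6%) without that library. Neither list was tested against these shares.

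The promoters of 5 genes with a lost rise are shown for the sequence motifs they hold. They are the 250 bases before the transcription start from RefSeq, in the coordinates of the build GRCr8, which is not the build of the expression data. Capitals mark the motifs found on either strand: GGAATG, bound by TEAD factors, in Ctgf and Nppb, TGANTCA, bound by AP-1, and a MEF2 motif in Xirp2, the CArG box of serum response factor in Fhl1, and the E-box CACGTG of the circadian clock factors in Ciart.
Ctgf (chr1:22624615-22624864, strand -): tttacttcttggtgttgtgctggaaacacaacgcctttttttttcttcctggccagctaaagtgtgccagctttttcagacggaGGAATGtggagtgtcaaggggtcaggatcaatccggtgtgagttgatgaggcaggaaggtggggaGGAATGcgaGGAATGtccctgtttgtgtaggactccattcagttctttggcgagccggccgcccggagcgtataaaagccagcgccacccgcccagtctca
Nppb (chr5:163699758-163700007, strand +): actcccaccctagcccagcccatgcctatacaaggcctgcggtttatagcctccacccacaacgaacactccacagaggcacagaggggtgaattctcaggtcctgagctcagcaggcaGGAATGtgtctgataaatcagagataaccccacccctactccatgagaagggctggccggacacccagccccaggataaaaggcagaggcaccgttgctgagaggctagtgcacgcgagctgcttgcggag
Xirp2 (chr3:72533936-72534185, strand +): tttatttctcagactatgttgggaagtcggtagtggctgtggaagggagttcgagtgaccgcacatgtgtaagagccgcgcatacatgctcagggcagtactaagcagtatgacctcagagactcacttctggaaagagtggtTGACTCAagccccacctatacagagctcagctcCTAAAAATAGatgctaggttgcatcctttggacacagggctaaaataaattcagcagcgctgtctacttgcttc
Fhl1 (chrX:139638246-139638495, strand +): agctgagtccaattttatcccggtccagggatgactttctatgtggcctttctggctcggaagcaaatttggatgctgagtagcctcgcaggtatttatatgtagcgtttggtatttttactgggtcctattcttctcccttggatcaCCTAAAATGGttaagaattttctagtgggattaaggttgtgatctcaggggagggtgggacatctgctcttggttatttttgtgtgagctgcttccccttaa
Ciart (chr2:186112247-186112496, strand -): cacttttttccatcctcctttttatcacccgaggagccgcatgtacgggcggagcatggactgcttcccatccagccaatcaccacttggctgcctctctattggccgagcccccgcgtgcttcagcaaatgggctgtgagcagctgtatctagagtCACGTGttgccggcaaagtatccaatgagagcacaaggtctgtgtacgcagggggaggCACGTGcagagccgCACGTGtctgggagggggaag
Ctgf, listed as Ccn2 in RefSeq, held 3 TEAD motifs, which start 166, 101 and 92 bases before the transcription start, and Nppb held 1 at 131 bases. Xirp2 held the AP-1 motif at 107 and the MEF2 motif at 74 bases, Fhl1 the CArG box at 102 bases and Ciart 3 E-boxes at 93, 35 and 21 bases. Of the 89 lost or reversed genes taken by the naming rule, 78 had a promoter in the table, and 9 of these (11.5%) held GGAATG, against 3228 of 27457 promoters in the table (11.8%) and 861 of 8540 tested genes (10.1%). Among all lost rises 85 of 855 (9.94%) held it. CACGTG was in 10 of the 78 (12.8%), against 5.79% of all promoters and 8.51% of those of tested genes, and TGANTCA in 2 (2.56%), against 6.36% and 4.36%. The CArG box was in 3 of the 78 (3.85%), against 1.5% and 1.14%. The MEF2 motif was in 2 (2.56%), against 3.07% and 1.49%, and in 0.936% of all lost rises and 1.87% of all lost falls. Among all lost rises and all lost falls CACGTG was in 9.94% and 9.1%, TGANTCA in 4.44% and 4.95%, and the CArG box in 1.17% and 0.937%. Some of the 78 were named from lists such as SRF targets and clock genes, so their shares are not independent of these motifs. A match describes these letters only and is not evidence of binding.

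For each gene list the siRNA difference is given with and without stretch where it bears on the interaction; the lists themselves were not tested. The list counts below stand beside the shares of all genes with a passing interaction. These were 11.7% higher and 12.1% lower with all libraries, and 16.5% and 18.1% without stretched control siRNA 3. Immediate early genes are the transcripts that growth signals switch on without new protein synthesis. Of 29 tested, 0 had a higher and 11 a lower interaction, all 11 as lost rises, with a median of −0.65, and 22 were lower without stretched control siRNA 3. The Wnt5a siRNA minus control siRNA difference had a median of −0.83 with stretch, where 23 of 29 were lower, and of −0.0020 without stretch, where 2 were higher and 5 lower; the shares over all genes were 13.2% higher and 14.2% lower with stretch (27.3%) and 14.6% higher and 13.9% lower without it (28.5%). Dusp6, a phosphatase that feeds back on ERK, was at 26.5, 29.3 and 17.9 FPKM in stretched and at 18.3, 20.8 and 18.6 FPKM in unstretched Wnt5a siRNA libraries, against 49.1, 56.5 and 41.8 FPKM in stretched and 17.5, 17.0 and 14.1 FPKM in unstretched control siRNA libraries. The stretched control siRNA libraries stood clear above the rest, and the unstretched control siRNA libraries lay just below both Wnt5a siRNA groups. Its interaction was −1.23 ± 0.23 (adjusted p = 0.00396), and those of the AP-1 subunit Junb and of Ier2 were −0.95 and −1.01. When stretched control siRNA 3 was left out, the fall of Junb with Wnt5a siRNA passed at an unchanged size, which made it a reversed response.

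Fetal and hypertrophic markers had 12 of 17 members lower and 0 higher, with a median interaction of −1.20, 9 of them lost. Their median siRNA difference was −0.96 with stretch, with 14 of 17 lower, and 0.22 without stretch, with 7 higher and 1 lower. Beside Nppa, Nppb, Xirp2, Cnn1 and Myh7 above, Fhl1, a LIM protein of the titin spring region, was at 399.7, 589.9 and 313 FPKM in stretched and at 459, 654 and 309 FPKM in unstretched Wnt5a siRNA libraries, against 1000, 868 and 982 FPKM in stretched and 265, 209 and 187 FPKM in unstretched control siRNA libraries. As for Xirp2, both Wnt5a siRNA groups lay between the control siRNA groups and overlapped each other. The interaction of Fhl1 was −2.22 ± 0.36 (adjusted p = 0.00241). These lists share members with the next ones and were written with earlier results of these data known, so their counts are a description.

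Lists of the contractile cytoskeleton and of adhesion varied. SRF and MRTF targets, which answer to actin polymerization, had 12 of 24 lower and 1 higher (median −0.53); that 1 was Fhl2, a LIM protein whose fall with stretch was lost (interaction 0.80 ± 0.12, adjusted p = 0.00197). With TPM 8 were lower and 1 higher. Integrins and focal adhesion genes had 9 of 21 lower and 0 higher (median −0.50), among them alpha-actinin 1 (Actn1, −1.47) and the fibronectin receptor subunit Itga5 (−0.81). Z-disc and intercalated disc genes had 7 of 21 lower and 2 higher, and 15 lower and 2 higher without stretched control siRNA 3; under stretch 18 of 21 were lower with Wnt5a siRNA than with control siRNA. In sarcomere genes the count was 3 higher and 2 lower of 21, with 2 higher and 6 lower without that library. These shares were near those of all genes, 23.8% with all libraries and 34.6% without that library. The small actin-binding protein Tagln2 had an interaction of −0.75.

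The TGF-beta response list had 13 of 19 lower and 2 higher (median −0.77), 11 of them lost, including the ligand subunit Inhba (−1.12), the transcription factor Bhlhe40 (−1.08) and Tgfb2. Tgfb2, a TGF-beta ligand of the heart, was at 82.5, 111 and 62.7 FPKM in stretched and at 89.4, 105 and 67.2 FPKM in unstretched Wnt5a siRNA libraries, against 236, 204 and 163 FPKM in stretched and 83.8, 64.5 and 65.4 FPKM in unstretched control siRNA libraries. Stretch separated the control siRNA groups and left the Wnt5a siRNA groups overlapping, with an interaction of −1.52 ± 0.30 (adjusted p = 0.00493). Growth factors and paracrine genes, of which 15 of 30 rose with control siRNA, had 10 lower and 2 higher, 8 of them lost, with 6 lower under TPM; the neurotrophin Bdnf (−1.40) and the BMP family ligand Gdf6 (−1.39) were among them. In the extracellular matrix list, of which 17 of 28 rose with Wnt5a siRNA and 26 with control siRNA, 8 were lower, among them thrombospondin 1 (Thbs1, −1.31) and the lysyl oxidase Loxl2 (−0.79), and 4 were higher, Dcn, Lum, Timp3 and Mmp2. Its median was −0.13 with all libraries and 0.0392 without stretched control siRNA 3. Prostaglandin synthase 2 (Ptgs2, −1.63) and the adhesion molecule Vcam1 (1.60) had the largest interactions named from the inflammatory list, in which 2 of 17 were higher and 2 lower. That share was near the 23.8% of all genes.

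The Wnt lists had shares of passing interactions near the 23.8% of all genes. Of 22 noncanonical Wnt and planar polarity genes 2 were higher and 5 lower. Rhoa, the GTPase downstream of this branch, was at 916, 899 and 846 FPKM in stretched and at 927, 957 and 894 FPKM in unstretched Wnt5a siRNA libraries, against 1140, 1112 and 997 FPKM in stretched and 786, 775 and 777 FPKM in unstretched control siRNA libraries. Its rise was lost, with an interaction of −0.53 ± 0.10 (adjusted p = 0.00378), and so was the fall of the receptor Fzd1 (0.73, adjusted p = 0.0121). Of 19 canonical Wnt effectors and antagonists 4 were higher and 1 lower, with the transcription factor Tcf7l2 at 0.81 and cyclin D1 (Ccnd1), whose rise was reduced, at −0.98.

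Among interferon response genes, which cells turn on against viruses, 2 of 25 rose and 0 fell under stretch with Wnt5a siRNA, against 1 that rose and 18 that fell with control siRNA (median −0.62). The interaction was higher for 12 of 25 and lower for 0 (median 0.54), all 12 as lost falls. Under stretch 16 of 25 were higher with Wnt5a siRNA than with control siRNA (median 0.58), and without stretch 1 was higher and 2 lower (median 0.0156). Ddx58, the RNA sensor RIG-I, was at 7.49, 8.72 and 7.49 FPKM in stretched and at 9.10, 8.16 and 9.87 FPKM in unstretched Wnt5a siRNA libraries, against 3.97, 4.38 and 4.85 FPKM in stretched and 8.28, 10.5 and 10.3 FPKM in unstretched control siRNA libraries. The stretched control siRNA libraries alone lay below the rest. Its interaction was 0.81 ± 0.16 (adjusted p = 0.00512), and that of the interferon-induced Parp9 was 0.85 ± 0.12 (adjusted p = 0.00173).

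**Figure D3:**
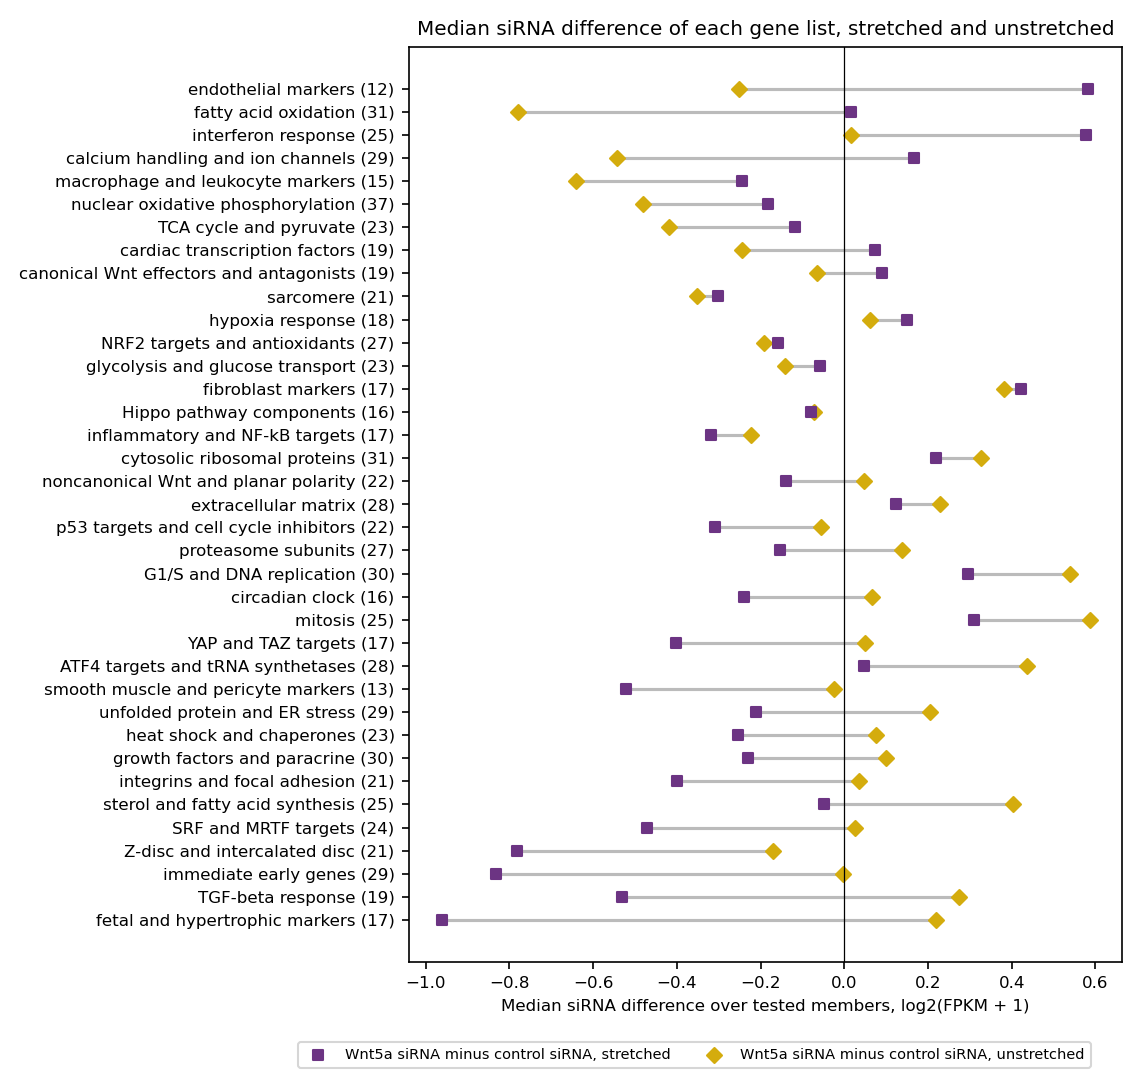
Median Wnt5a siRNA minus control siRNA difference in log2(FPKM + 1) over the tested members of each gene list (number in brackets), with stretch (squares) and without stretch (diamonds), lists ordered by median interaction. Immediate early genes are at −0.83 with stretch and near 0 without it, whereas fatty acid oxidation genes are near 0 with stretch and at −0.78 without it.

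Among the lists of energy metabolism, fatty acid oxidation had 24 of 31 higher and 0 lower (median 0.86), 23 of them lost falls. The median stretch change of the list was −0.10 with Wnt5a siRNA, with 1 fall and 1 rise, and −0.94 with control siRNA, with 29 falls and 1 rise. Without stretch 28 of 31 were lower with Wnt5a siRNA than with control siRNA (median −0.78), and with stretch 5 were higher and 0 lower (median 0.0167). When stretched control siRNA 3 was left out, 5 were higher and 5 lower with stretch (median −0.055). Cpt2, which readies long-chain fatty acids inside the mitochondrion, was at 20.1, 19.3 and 24.8 FPKM in stretched and at 23.0, 20.9 and 25.1 FPKM in unstretched Wnt5a siRNA libraries, against 16.0, 19.5 and 15.4 FPKM in stretched and 37.9, 38.2 and 40.1 FPKM in unstretched control siRNA libraries. The unstretched control siRNA libraries stood alone above the other 3 groups. Its interaction was 1.05 ± 0.15 (adjusted p = 0.0018).

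Nuclear genes of oxidative phosphorylation had 13 of 37 higher and 0 lower (median 0.31), and 20 higher with TPM. With stretch 8 of 37 were lower with Wnt5a siRNA than with control siRNA and without stretch 33; without stretched control siRNA 3 the count with stretch was 24 (median −0.258). Ndufa4, a cytochrome oxidase subunit, was at 280.0, 268 and 233 FPKM in stretched and at 184, 187 and 186 FPKM in unstretched Wnt5a siRNA libraries, against 509.9, 572 and 473 FPKM in stretched and 577, 580.0 and 606 FPKM in unstretched control siRNA libraries. It was lower with Wnt5a siRNA in both conditions of load, and its rise with stretch was gained (interaction 0.67 ± 0.12, adjusted p = 0.00298). TCA cycle and pyruvate genes had 9 of 23 higher and 0 lower; 5 were lower with Wnt5a siRNA under stretch (11 without stretched control siRNA 3) and 20 without stretch. The interaction of malate dehydrogenase 1 (Mdh1) was 0.69 and that of the pyruvate dehydrogenase kinase Pdk2 1.02. Glycolysis and glucose transport genes were split, with 4 higher and 5 lower with Wnt5a siRNA under stretch and 2 higher and 5 lower without it. Their interaction was higher for 7 of 23 and lower for 2, the lower ones being hexokinase 2 (Hk2, −0.96) and the platelet phosphofructokinase Pfkp (−1.15); their median was −0.0084 and 0.0974 with TPM. Ppargc1a, the coactivator PGC-1alpha that raises mitochondrial genes, was at 15.1, 16.3 and 19.7 FPKM in stretched and at 20.3, 15.7 and 20.8 FPKM in unstretched Wnt5a siRNA libraries, against 8.34, 11.2 and 10.3 FPKM in stretched and 24.4, 26.2 and 27.1 FPKM in unstretched control siRNA libraries. Its fall was lost (interaction 1.16 ± 0.18, adjusted p = 0.00221), as both Wnt5a siRNA groups lay between the control siRNA groups.

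Of calcium handling and ion channel genes 11 of 29 fell with Wnt5a siRNA and 18 with control siRNA. Of the 29 tested, 10 had a higher and 1 a lower interaction (median 0.49), 6 of them as reduced and 5 as lost responses, and without stretch 14 were lower and 1 higher with Wnt5a siRNA. Cacna1c, the pore of the L-type calcium channel, was at 18.3, 20.3 and 22.5 FPKM in stretched and at 32.6, 29.5 and 35.6 FPKM in unstretched Wnt5a siRNA libraries, against 15.6, 17.6 and 14.4 FPKM in stretched and 55.6, 53.8 and 55.8 FPKM in unstretched control siRNA libraries. The stretched groups nearly met, and the unstretched groups were far apart. The fall was −0.65 with Wnt5a siRNA and −1.74 with control siRNA, an interaction of 1.08 ± 0.13 (adjusted p = 0.00104). The repolarizing potassium channel Kcnh2 had an interaction of 1.07 (adjusted p = 0.00171). Of 19 cardiac transcription factors 6 were higher and 0 lower, with Irx4, a factor of ventricular identity, at 1.35; 7 were higher and 3 lower without stretched control siRNA 3.

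Protein synthesis and quality control differed by list. The 31 cytosolic ribosomal protein genes rose with both siRNAs, 31 of 31 with each and 27 of 32 under TPM, 30 were kept, and 0 had a passing interaction. Their median interaction was −0.107 and 0.0097 with TPM. Unfolded protein and ER stress genes had 12 of 29 lower and 0 higher, 7 reduced and 5 lost, and 6 more were kept; with TPM 8 were lower. Atf4, the factor of the integrated stress response, was at 324, 318 and 305 FPKM in stretched and at 259, 274 and 256 FPKM in unstretched Wnt5a siRNA libraries, against 445, 419 and 394 FPKM in stretched and 218, 218 and 222 FPKM in unstretched control siRNA libraries. All 4 groups were separate, and the rise was reduced (interaction −0.67 ± 0.09, adjusted p = 0.00113). ATF4 targets and tRNA synthetases had 13 of 28 lower and 0 higher, with the threonine enzyme Tars at −0.61, and without stretch 22 of 28 were higher with Wnt5a siRNA.

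Heat shock and chaperone genes had 10 of 23 lower and 0 higher, 18 without stretched control siRNA 3, with the chaperonin subunit Cct3 at −0.52, which counted as reduced without that library. Proteasome subunits had 14 of 27 lower and 0 higher, with Psmd12 at −0.54, and 7 lower with TPM. Sterol and fatty acid synthesis genes had 6 of 25 lower and 0 higher, and 3 lower with TPM. Over all genes 23.8% passed, 12.1% lower and 11.7% higher. Without stretched control siRNA 3 the sterol list had 5 lower and 1 higher, where 34.6% of all genes passed. Of 16 circadian clock genes 7 were lower and 1 higher, led by Ciart, a repressor of the clock. Ciart was at 2.87, 2.99 and 2.79 FPKM in stretched and at 3.78, 3.71 and 3.37 FPKM in unstretched Wnt5a siRNA libraries, against 4.72, 4.62 and 5.47 FPKM in stretched and 1.73, 1.86 and 1.81 FPKM in unstretched control siRNA libraries. The 4 groups did not overlap, and the interaction was −1.33 ± 0.14 (adjusted p = 0.000465).

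**Figure D4:**
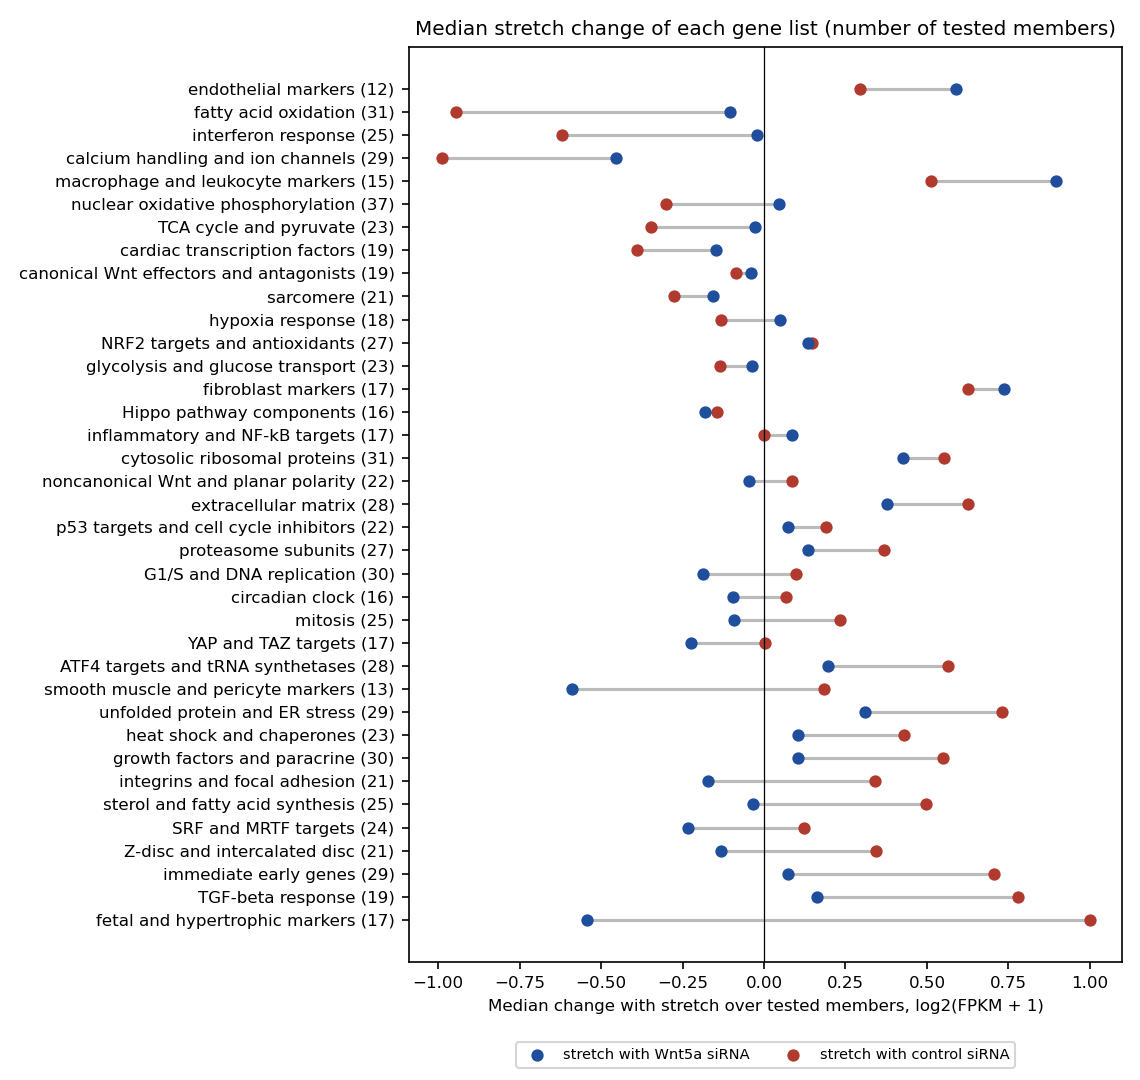
Median change with stretch in log2(FPKM + 1) over the tested members of each gene list (number in brackets), with Wnt5a siRNA (blue) and control siRNA (red), lists ordered by median interaction. The blue marks are nearer to 0 than the red ones for fatty acid oxidation (−0.10 against −0.94), interferon and immediate early genes and other metabolic lists. They are further from 0 for macrophage and endothelial markers and for several other lists. Among those are fibroblast, smooth muscle and pericyte markers, YAP and TAZ targets, SRF and MRTF targets and G1/S genes.

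Markers of other cell types moved as follows. The 17 macrophage and leukocyte markers summed to 395.6 to 440.7 FPKM in stretched and 164.1 to 176.9 FPKM in unstretched Wnt5a siRNA libraries, against 361.1 to 603.1 FPKM in stretched and 208.8 to 269.9 FPKM in unstretched control siRNA libraries, the highest being replicate 3. Of 15 tested, 14 rose with Wnt5a siRNA and 9 with control siRNA, and 1 had a passing interaction, the lysosomal protein Cd68 (0.47, adjusted p = 0.0488), which 13 alternatives took past 0.05; without stretched control siRNA 3, 7 passed, all higher. The 14 endothelial markers summed to 177.5 to 214.4 FPKM in stretched and 128.9 to 136.7 FPKM in unstretched Wnt5a siRNA libraries, against 154.8 to 185.0 FPKM in stretched and 113.4 to 129.2 FPKM in unstretched control siRNA libraries. Of 12 tested 5 had a higher interaction and 0 a lower one, 3 of them gained, and 3 without stretched control siRNA 3. The tight junction protein Cldn5 was at 5.16, 3.44 and 3.04 FPKM in stretched and at 1.25, 0.359 and 1.02 FPKM in unstretched Wnt5a siRNA libraries, against 0.833, 1.31 and 1.13 FPKM in stretched and 0.43, 1.17 and 0.847 FPKM in unstretched control siRNA libraries (interaction 1.17, adjusted p = 0.0201; 0.0588 with a pseudocount of 0.1 and 0.0534 without unstretched control siRNA 2).

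The 13 smooth muscle and pericyte markers, some of which immature cardiomyocytes also express, summed to 4355 to 5088 FPKM in stretched and 5583 to 7672 FPKM in unstretched Wnt5a siRNA libraries, against 5860 to 9253 FPKM in stretched and 6277 to 7441 FPKM in unstretched control siRNA libraries, and 6 of 13 had a lower interaction and 1 a higher one. The 9 cardiomyocyte markers summed to 15040 to 21200 FPKM in stretched and 15110 to 18600 FPKM in unstretched Wnt5a siRNA libraries, against 21580 to 31720 FPKM in stretched and 21760 to 24250 FPKM in unstretched control siRNA libraries. The cardiomyocyte sums did not overlap between the siRNAs, by a narrow margin. Such sums follow the highest genes most, above all Actc1, which ran from 4717 to 18630 FPKM. Not every member followed the sum: without stretch Myh7 had a mean of 1714 FPKM with Wnt5a siRNA and 751.1 FPKM with control siRNA. The fibroblast marker S100a4, also made by other cells, had its rise lost (interaction −1.12, adjusted p = 0.00502), or reduced without stretched control siRNA 3. The part of changes in cell makeup in the results was not tested.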

How the data were processed

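RNA of 12 cardiomyocyte samples was sequenced from libraries made with the TruSeq Stranded mRNA kit, per the labels' protocols. The authors deposited 1 FPKM value per gene and library; the submitters' processing notes name TopHat2 2.1.1, Bowtie2, Cuffdiff 2.2.1 and the rat build rn6. The annotation, the strand setting and the handling of reads with several matches are each not given in the sources used here, so values of overlapping, antisense and near-identical genes are uncertain. Read depth is unknown: low values were whole multiples of a unit for 1457 of 1523 low genes (95.7%, tolerance 0.03), which gives relative depth (span 1.21) and no counts.

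Genes with at least 1 FPKM in at least 3 libraries (10518) were fitted as log2(FPKM + 1) with limma 3.58.1 in R 4.3.3, as 4 group means with an intensity trend. The contrasts were the interaction, stretch with each siRNA, and Wnt5a siRNA minus control siRNA with and without stretch. P-values were adjusted by Benjamini and Hochberg, with a threshold of 0.05. In simulated data of 10518 genes, 200 genes were changed. There the interaction test called 54% of 100 changes of 1.5-fold and 97% of 100 of 3-fold, with 8 false calls among 159. These rates describe that simulation only. How far they hold for the libraries analysed here, where 23.8% of genes passed, was not tested.

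Named genes were fixed markers, the largest interactions in each class with and without stretched control siRNA 3 (up to 5 per direction, at least 5 FPKM), up to 4 kept genes per direction, and up to 3 genes per list by adjusted p; provisional symbols and small RNA genes were passed over, and some genes are not reported here. The classes, members and lists were chosen with earlier results of these data known. Of 17312 symbols 14809 were current in RefSeq and 2090 were synonyms.

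Same-numbered stretched and unstretched Wnt5a siRNA libraries deviated together (correlations 0.184, 0.242 and 0.143), and the control siRNA libraries did not in every pair (0.249, 0.0586 and −0.0194). The pairing comes from this check only. Alternatives were a pseudocount of 0.1, no filter, a minimum of 5 FPKM, TPM, quantile normalization, array weights, a replicate block, no variance trend, a 1.5-fold stretch response and leaving out each library.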

Additional observations from a re-analysis of the deposited data

Results flagged for a closer look

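The limma test of the interaction, that is, of the difference between the stretch changes with Wnt5a siRNA and with control siRNA, picked out the 91 named genes below. Each value is the interaction on log2(FPKM + 1) with all libraries, and no cause was tested for any of them. Rises with control siRNA that were lost with Wnt5a siRNA were those of Nppa (−3.38), Bdkrb2 (−2.89), Xirp2 (−2.75), Hbegf (−2.46), Cnn1 (−2.31), Fhl1 (−2.22), Nppb (−2.15), Ptgs2 (−1.63), Ctgf (−1.58), Tgfb2 (−1.52), Actn1 (−1.47), Bdnf (−1.40), Gdf6 (−1.39), Ciart (−1.33), Thbs1 (−1.31), Dusp6 (−1.23), Pfkp (−1.15), Inhba (−1.12), S100a4 (−1.12), Bhlhe40 (−1.08), Ier2 (−1.01), Gadd45a (−0.98), Hk2 (−0.96), Junb (−0.95), Itga5 (−0.81), Loxl2 (−0.79), Tagln2 (−0.75), Psmd12 (−0.54), Rhoa (−0.53) and Cct3 (−0.52). Lost falls were those of Nr0b2 (2.35), Lrrc39 (2.2), Fn3k (2.12), G0s2 (2.11), Hadh (2.11), Vcam1 (1.60), Ppargc1a (1.16), Cpt2 (1.05), Pdk2 (1.02), Parp9 (0.85), Tcf7l2 (0.81), Ddx58 (0.81), Fhl2 (0.80), Fzd1 (0.73), Wnt5a (0.70) and Mdh1 (0.69). Reduced rises were those of Ptgis (−1.47), Il1rl1 (−1.37), Id4 (−1.28), Ramp3 (−1.26), Id1 (−1.23), Ccnd1 (−0.98), Atf4 (−0.67) and Tars (−0.61). Reduced falls were those of Smim5 (2.27), Mmp15 (1.73), Tspan18 (1.68), Pfkm (1.51), Txlnb (1.43), Irx4 (1.35), Cacna1c (1.08) and Kcnh2 (1.07). Genes that rose with control siRNA and fell with Wnt5a siRNA were Kcnk2 (−1.43), Hr (−1.41), Cspg4 (−1.36), Map1a (−1.25), Synm (−1.14) and Myh7 (−1.12). Genes that fell with control siRNA and rose with Wnt5a siRNA were Smim8 (1.5), Cox8b (1.43), Tmem176a (1.39), Sepp1 (1.20) and Cpxm1 (1.04). Rises seen with Wnt5a siRNA only were those of Igfbp3 (1.37), Tm4sf19 (1.36), Capn6 (1.32), Cd93 (1.29), Cldn5 (1.17), Fxyd2 (1.15) and Ndufa4 (0.67). Falls seen with Wnt5a siRNA only were those of Cyp26b1 (−1.33), Mustn1 (−1.27), Acan (−1.23), and Cyr61 (−1.09). Increased rises were those of Fbln1 (1.63), Dcn (1.34), Igf1 (1.14), Lum (0.89), H19 (0.83) and Cd68 (0.47). The increased fall was that of Tpm2 (−0.62).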

How the results depend on the processing

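Leaving out 1 library at a time gave 1572 to 3634 genes with a passing interaction (752 to 1732 higher, 811 to 1902 lower), 848 to 2625 with a stretch change with Wnt5a siRNA and 4810 to 6025 with control siRNA. The classes then held 1256 to 2510 lost, 116 to 527 reduced, 9 to 143 reversed, 68 to 305 gained, 6 to 39 increased and 299 to 847 kept genes, and the interaction of Wnt5a was 0.5622 to 0.8284; every highest value came from leaving out stretched control siRNA 3. Array weights, which gave that library 0.158, led to 4928 interactions (2399 higher, 2529 lower), 3551 stretch changes with Wnt5a siRNA and 3008 lost, 900 reduced, 298 reversed, 509 gained, 68 increased and 1067 kept genes. TPM gave 800 lower interactions and 8 increased genes. TPM without stretched control siRNA 3, chosen after seeing the data, gave 2367 higher interactions, 3311 stretch changes with Wnt5a siRNA and 676 reduced, 176 reversed, 366 gained and 1006 kept genes. Without a filter on low values 21 genes were reversed and 10 increased, and 10 were increased without a variance trend. Requiring a stretch change of at least 1.5-fold left 80 reduced, 3 reversed, 85 gained, 6 increased and 55 kept genes. The replicate number as a block gave 1230 higher and 1336 lower interactions and 1693 stretch changes with Wnt5a siRNA. The interaction of Yap1, which passed nowhere, ranged from −0.0314 to 0.0610 with 1 library left out and changed sign with array weights (−0.0291) and without unstretched control siRNA 3 (−0.0131), unstretched Wnt5a siRNA 3 (−0.0063), stretched control siRNA 2 (−0.0314) or stretched Wnt5a siRNA 2 (−0.0075). For the 90 named genes other than Wnt5a, 1832 recomputed interactions kept their direction and passed, 53 kept it and did not pass, and 0 changed sign. The fit pools the spread over all groups. Leaving out a control siRNA library therefore alters the p-values of stretch with Wnt5a siRNA and not the size of that change. Other causes of these changes were not tested. Read depth is unknown, so no counting error could be given.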

Other observations

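Cell cycle genes differed between the siRNAs more than in the interaction. Without stretch 24 of 25 mitosis genes and 23 of 30 G1/S and DNA replication genes were higher with Wnt5a siRNA than with control siRNA, with median differences of 0.586 and 0.538, against 14.6% of all genes. With stretch 6 mitosis genes and 16 G1/S genes were higher, with medians of 0.311 and 0.295, and without stretched control siRNA 3 the counts with stretch were 21 and 18, against 21.8% of all genes. The interaction was lower for 1 of 25 mitosis genes and for 5 of 30 G1/S genes, with 1 G1/S gene higher. Of 22 p53 targets and cell cycle inhibitors 2 had a higher and 5 a lower interaction, of 27 NRF2 targets and antioxidants 5 and 5, and of 18 hypoxia response genes 5 and 3. No interaction passed among 7 epicardial and mesothelial and 2 erythroid markers, with 1 higher and 2 lower epicardial markers without stretched control siRNA 3, and 1 of 6 Schwann and neuronal markers had a lower one. Over all genes the interaction passed for 23.8% (11.7% higher and 12.1% lower), and for 34.6% without stretched control siRNA 3. The lists were not tested against these shares.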
